A study of Mus musculus with 9 samples.

Results

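Transglutaminases are enzymes that join proteins by bonds between glutamine and lysine side chains. In squamous epithelia such as the epidermis they tie precursor proteins together under the plasma membrane into the cornified envelope, an insoluble shell that replaces the membrane of dying surface cells. Envoplakin and periplakin form an early scaffold of that shell, and sciellin and cornifelin are among the proteins joined to it. The healthy tracheal lining is not a cornified epithelium, but airway cells deprived of vitamin A take on squamous features, and Tgm1 is a classical marker of that change. The 10 genes described here were picked by symbol from the deposited table, out of 56748 genes in all. They are the transglutaminases Tgm1, Tgm2 and Tgm3, the plakins Evpl and Ppl, the envelope proteins Scel and Cnfn, the secreted keratinocyte proteins Krtdap and Sbsn, and the secreted glycoprotein Ecm1.

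RNA was sequenced from wild-type primary basal stem cells of the mouse trachea, the progenitors at the base of the airway lining, grown at an air-liquid interface. In this culture the cells sit on a membrane, with medium below and air above. Libraries were made on day 1, day 3 and day 5, which the submitters link to proliferation, stratification and the specification of luminal cells. All 9 libraries, 3 per day, share the genotype and the culture, so day is the only labelled difference. The labels give neither the age or number of animals nor whether libraries of a day came from separate cultures, so p-values reflect no more than how these libraries varied within a day, and that variation may be technical.

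Depth was 26.5 to 35.1 M reads per library on day 1, 19.5 to 24.6 M on day 3 and 16.4 to 19.3 M on day 5. All 11 basal cell markers had reads on every day. Their sum was 268682 to 288394 normalized counts on day 1, 422864 to 483620 on day 3 and 244584 to 332257 on day 5. Krt15 was at 62675 ± 3724, 302633 ± 29307 and 195601 ± 34885 (SD, n = 3), and Krt5 at 108199 ± 5696, 82486 ± 1709 and 38923 ± 5823. On day 5, 5 of the 11 were higher than on day 1 and 5 lower, beside 36.7% and 37.7% of all tested genes. Summed secretory cell markers were at 2614 to 8138 on day 1, 271191 to 407489 on day 3 and 698609 to 952228 on day 5. Most of the day 3 sum was Cbr2 (311058 ± 62847, and 311624 ± 63373 on day 5), then Cyp2f2 (23567 ± 4559) and Lypd2 (13359 ± 3208). No other secretory marker averaged above the 96.8 ± 21.2 of Scgb1a1 on day 3. On day 5 Scgb1a1 was at 18744 ± 5304 and Bpifa1 at 125696 ± 20475. Summed multiciliated markers were at 94.9 to 122, 254 to 351 and 5078 to 6133 on the 3 days. Of 9 fibroblast markers, Dcn, which encodes the matrix proteoglycan decorin, was at 0 until day 5 and at 112 ± 16.1 (SD, n = 3) then, while Col1a1 averaged at most 2.71. The leukocyte marker Tyrobp had no read, and the summed leukocyte markers never passed 36.5. The summed endothelial markers were at 104 to 128, 250 to 336 and 75.3 to 99.7 on the 3 days, led by Egfl7 on days 1 and 3 and by Vwf on day 5, with Cdh5 at a mean of at most 0.43. Muscle and cartilage markers summed to 32.1 to 60.2 throughout. The 4 Y-linked genes Ddx3y, Eif2s3y, Uty and Kdm5d summed to 3137 ± 113, 324 ± 24.2 and 461 ± 98.3 on days 1, 3 and 5, and Xist, the RNA of the inactive X, stood at 1825 ± 246, 5998 ± 507 and 7373 ± 1292. These levels moved with day, so differences between days and between the animals the cells came from cannot be told apart. The part of the rising secretory and multiciliated markers in the results was not tested. In bulk RNA, fewer cells of a type and less RNA per cell cannot be told apart.

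Promoter sequences from RefSeq (GRCm38.p6) were found for 7 of the 10 genes, in 8 windows that run from 250 bases before to 50 bases after an annotated start. The 4 windows below are shown because they hold a match to the AP-1 motif, the element bound by Fos and Jun proteins. The motif was searched as TGANTCA, a loose spelling that takes any middle base and is the same on both strands. Capitals mark that motif and, in Krtdap and Ecm1, the letters TATAAA of a TATA box.
Krtdap, chr7:30787655-30787954, plus strand: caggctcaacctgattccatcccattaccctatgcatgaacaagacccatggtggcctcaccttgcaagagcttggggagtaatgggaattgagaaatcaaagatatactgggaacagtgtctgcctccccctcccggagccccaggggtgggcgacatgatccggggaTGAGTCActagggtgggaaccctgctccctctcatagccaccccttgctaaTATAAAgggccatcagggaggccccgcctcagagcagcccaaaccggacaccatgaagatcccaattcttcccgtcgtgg
Sbsn, chr7:30751221-30751520, plus strand: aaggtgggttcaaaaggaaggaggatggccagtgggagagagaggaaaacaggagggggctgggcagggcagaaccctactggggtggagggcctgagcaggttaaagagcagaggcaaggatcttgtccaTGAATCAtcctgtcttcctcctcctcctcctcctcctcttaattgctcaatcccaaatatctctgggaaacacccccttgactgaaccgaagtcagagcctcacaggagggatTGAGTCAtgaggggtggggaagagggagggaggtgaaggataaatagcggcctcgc
Scel, chr14:103513091-103513390, plus strand: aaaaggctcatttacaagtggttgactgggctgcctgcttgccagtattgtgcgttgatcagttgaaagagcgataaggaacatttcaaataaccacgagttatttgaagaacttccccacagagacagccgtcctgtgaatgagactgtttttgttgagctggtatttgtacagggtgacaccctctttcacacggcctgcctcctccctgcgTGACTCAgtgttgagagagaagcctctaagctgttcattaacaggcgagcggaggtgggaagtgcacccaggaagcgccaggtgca
Ecm1, chr3:95739520-95739819, minus strand: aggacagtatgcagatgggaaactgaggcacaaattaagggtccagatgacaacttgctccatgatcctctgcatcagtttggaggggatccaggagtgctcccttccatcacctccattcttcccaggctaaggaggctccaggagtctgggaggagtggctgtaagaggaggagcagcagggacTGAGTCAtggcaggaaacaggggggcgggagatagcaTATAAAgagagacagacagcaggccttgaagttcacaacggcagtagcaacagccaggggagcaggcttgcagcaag

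The AP-1 match begins 81 bases before the annotated start in Krtdap, 36 before it in Scel and 64 before it in Ecm1. In Sbsn there is a pair of matches, TGAATCA 119 bases and TGAGTCA 6 bases before the start. The loose spelling TGANTCA was in 4 of the 8 windows, against 7.81% of 32851 mouse promoter windows of 300 bases. TATAAA, searched on both strands, was in 3 of the 8 windows (Tgm3, Krtdap and Ecm1) and in 13.6% of all windows. The windows of Tgm1, Tgm3 and Cnfn hold no TGANTCA. A GC box, GGGCGG on either strand, was in the windows of Tgm1, Cnfn and Ecm1 and in 35.7% of all windows. A match is a run of letters and says nothing of whether a factor was bound there. Sbsn and Krtdap are neighbours on chromosome 7, with Dmkn, the gene of the secreted keratinocyte protein dermokine, between them.

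Levels below are normalized counts, meaning reads divided by the size factor of the library, and changes are differences of log2(normalized count + 1) from limma fitted to 17338 genes, with p-values adjusted over all of them by the Benjamini-Hochberg method and called at 0.05. The test covered 9 of the 10 genes, and all 9 differed across the 3 days (F test), as did 91.4% of all tested genes. From day 1 to day 3, 2 genes rose (Tgm2 and Ecm1) and 6 fell, beside 36.1% of all tested genes that rose and 37% that fell. From day 3 to day 5, 2 rose (Tgm2 and Scel) and 5 fell, beside 34.8% and 32.4%. On day 5, 1 gene was higher than on day 1 (Tgm2, beside 36.7% of all genes) and 8 were lower (beside 37.7%). In either direction 8, 7 and 9 of the 9 genes were called in these comparisons, beside 73%, 67.3% and 74.5% of all tested genes, and 8 differed between the steps (all but Krtdap, which was called there only with a pseudocount of 8), beside 70.7%. Libraries did not overlap between days 1 and 3 for 2 higher and 6 lower genes (37.9% and 39.4% of all genes), between days 3 and 5 for 1 higher and 6 lower (36.8% and 34.2%), and between days 1 and 5 for 1 higher and 8 lower (38% and 38.9%). Calls were common among all genes. By a rule chosen after the values were seen, a called fall of at least 2 on the log2 scale from day 1 to day 5, 5 of the 9 qualified (Cnfn, Krtdap, Sbsn, Scel and Tgm1), beside 9.63% of all tested genes. Scel qualified by a hair, at −2.002, and its change ranged from −2.27 to −1.74 when a library was left out, so this count is not stable. The median log2 change of the 9 genes was −1.89, −0.95 and −2.0 in the comparisons of day 3 with day 1, day 5 with day 3 and day 5 with day 1, and that of all tested genes was 0.00, 0.06 and −0.06. The 3 day 1 libraries of Krtdap, where it is highest, were enough to pass the filter of 10 normalized counts in 3 libraries. Of its other libraries only 1, from day 3, reached 10. The counts and medians given here are therefore descriptions. Setting Krtdap to the bound given below left the medians as they were.

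**Figure D1:**
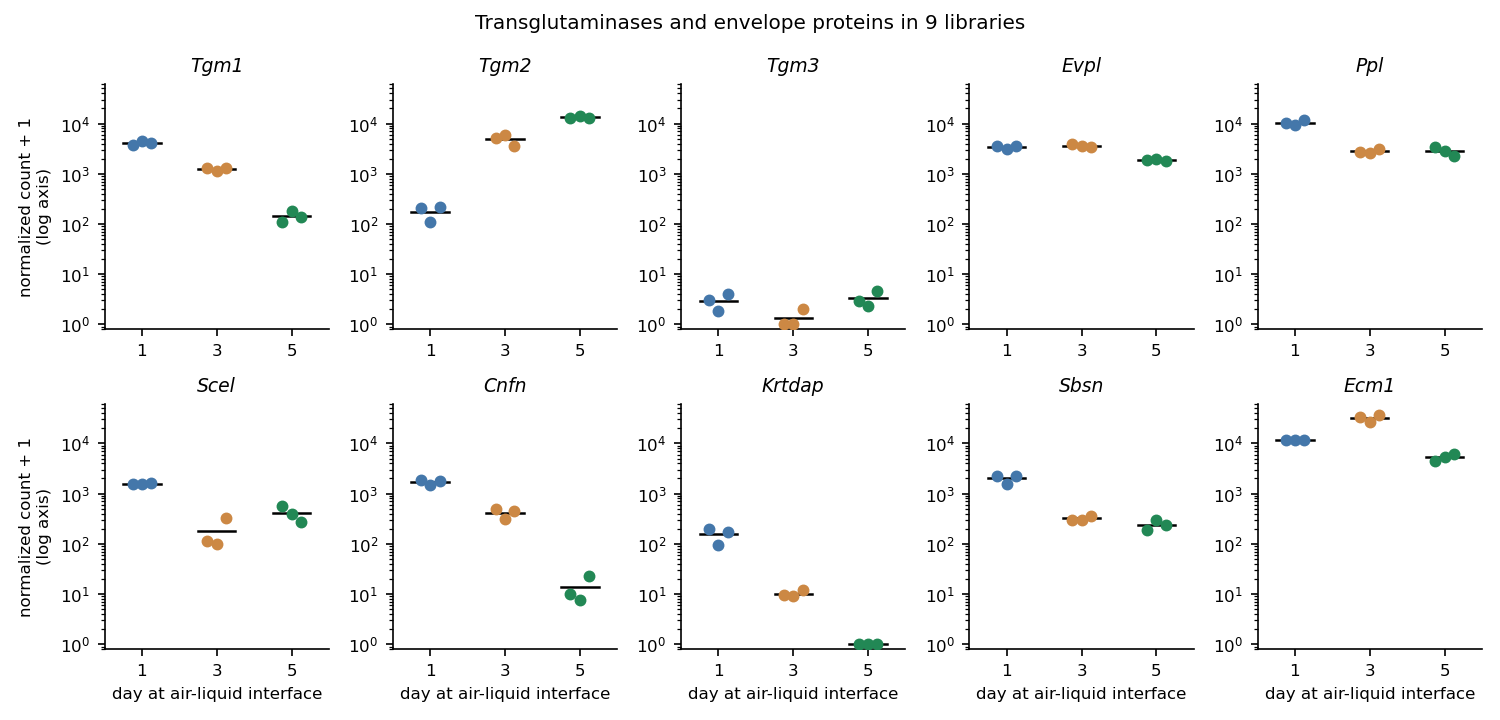
Normalized count plus 1 (log axis) of the 10 genes in each of the 9 libraries by day at the air-liquid interface; points are libraries and black lines are means of the 3 libraries of a day. Tgm2 climbs, Tgm1, Krtdap and Cnfn descend at both steps, Ecm1 peaks on day 3, and Tgm3 stays below 4 normalized counts.

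The transglutaminases exchanged places. Tgm1 (ENSMUSG00000022218, chromosome 14) encodes the membrane-anchored transglutaminase of keratinocytes, loss of which causes lamellar ichthyosis in humans. It was at 3776, 4561 and 4058 normalized counts in the day 1 libraries, 1285, 1149 and 1284 on day 3, and 111, 183 and 138 on day 5. The 3 days did not overlap, and each later day was lower. Tgm1 fell by 1.73 on the log2 scale from day 1 to day 3 (SE 0.16, adjusted p = 5.5e-06) and fell by 3.12 from day 3 to day 5 (SE 0.16, adjusted p = 2.1e-07), a mean 28.7-fold lower on day 5 than on day 1. The second fall was the larger (difference of steps −1.39, adjusted p = 0.0012).

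Tgm2 (ENSMUSG00000037820, chromosome 2), tissue transglutaminase, is the widely expressed member that also binds GTP, and it is a known retinoic acid target in several cell types. It was at 206, 106 and 216 in the day 1 libraries, 5201, 5942 and 3516 on day 3, and 12661, 14360 and 13093 on day 5. Every library of a later day was above every library of an earlier one. Tgm2 rose by 4.82 on the log2 scale from day 1 to day 3 (SE 0.26, adjusted p = 3.2e-07) and by 1.48 from day 3 to day 5 (SE 0.26, adjusted p = 5.9e-04), so that its mean was 75.9-fold higher on day 5 than on day 1. Here the first step was the larger (difference of steps −3.34, adjusted p = 9.9e-05). In the GENCODE M21 annotation 21.8% of Tgm2 exon bases, none within the last 500, lie opposite Rprd1b or Gm20412, and no source used here says whether counting used strand. Gm20412 had no read, and Rprd1b was at 869 ± 77.6, 581 ± 44.4 and 987 ± 61.1 on days 1, 3 and 5. It was below the Tgm2 level on days 3 and 5 and above the Tgm2 level of 176 ± 60.7 on day 1. Whether Rprd1b reads add to the day 1 level of Tgm2, and so to the Tgm2 changes from day 1, was not tested.

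Within a library, the ratio of Tgm2 to Tgm1 needs no size factor. Tgm1 exceeded Tgm2 by 18.3-, 42.9- and 18.8-fold in the day 1 libraries. Tgm2 exceeded Tgm1 by 4.05-, 5.17- and 2.74-fold on day 3, and by 114-, 78.3- and 95.0-fold on day 5. The log2 ratio moved from −4.61 ± 0.69 to 1.95 ± 0.46 and 6.55 ± 0.27 (SD, n = 3), with an exact permutation p of 0.00357 over 1680 assignments of libraries to days, the smallest p this design allows. The crossover had taken place by day 3 in all 3 libraries.

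Tgm3 (ENSMUSG00000027401, chromosome 2) encodes the transglutaminase of the upper epidermis and hair follicle, which is activated by proteolysis. It had 9 reads in all on day 1, 1 on day 3 and 6 on day 5, or 2.03, 0.83 and 3.03 normalized counts, then 0, 0 and 0.99, then 1.98, 1.29 and 3.69. It was below the filter and was left out of the fit. With no filter on low counts it was called higher on day 5 than on day 3 (log2 change 1.34, SE 0.48, adjusted p = 0.044) and was not called between days 1 and 3 (adjusted p = 0.070), days 1 and 5 (adjusted p = 0.80) or in the F test (adjusted p = 0.056). Its steps differed in that setting (adjusted p = 0.029). These calls rest on 9, 1 and 6 reads on the 3 days. Of 6 other genes of the family (Tgm4, Tgm5, Tgm6, Tgm7 and the factor XIII subunits), 2 passed the filter. Tgm5, a further epidermal enzyme, was at 151 ± 50.7, 92.6 ± 10.4 and 59.6 ± 14.7 and was lower on day 5 than on day 1 (log2 change −1.29, adjusted p = 0.0019), with neither single step called. Tgm4, the prostate enzyme, stayed at 16.6 to 19.4 on average, and its last 500 bases lie wholly opposite other genes.

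**Figure D2:**
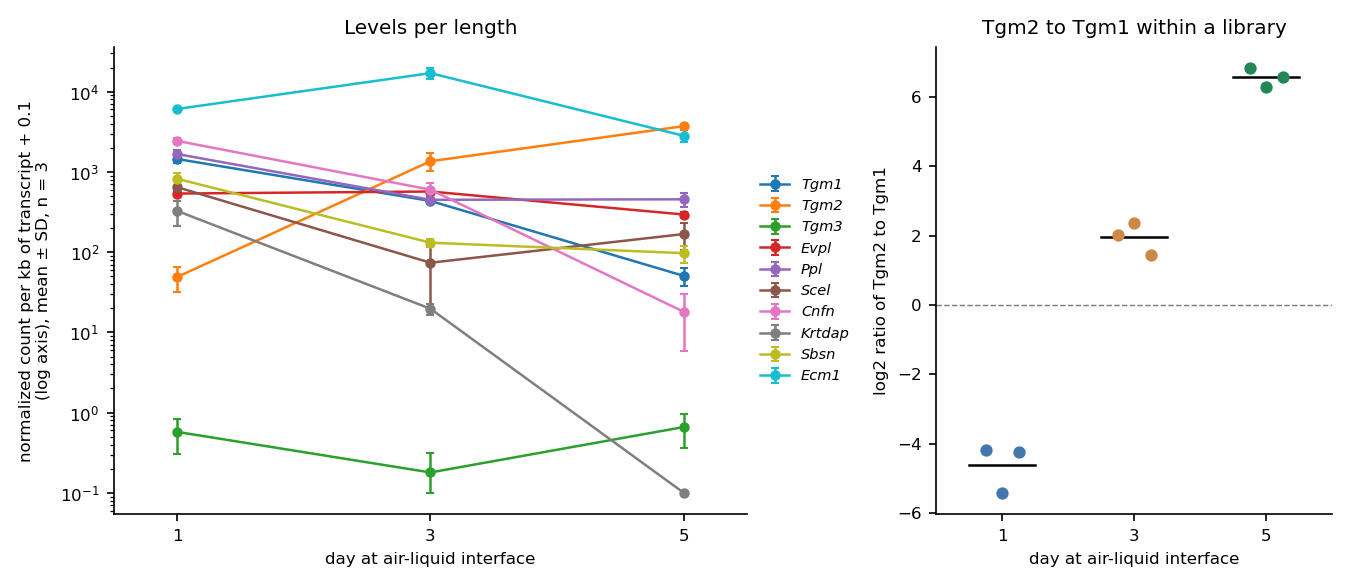
Left, mean normalized count per kb of transcript plus 0.1 (log axis) with SD over 3 libraries, for each gene and day; right, the log2 ratio of Tgm2 to Tgm1 in each library, with black lines at the day means. The Tgm2 line crosses that of Tgm1 between day 1 and day 3, and the ratio passes from −4.61 to 6.55.

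The plakins parted from each other. Evpl (envoplakin, ENSMUSG00000034282, chromosome 11) was at 3515, 3150 and 3624 on day 1, 3969, 3503 and 3443 on day 3, and 1863, 2005 and 1770 on day 5. Days 1 and 3 overlapped (log2 change 0.08, SE 0.10, adjusted p = 0.44), and all day 5 libraries were lower than any earlier one. Evpl fell by 0.95 from day 3 to day 5 (SE 0.10, adjusted p = 1.4e-05).

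Ppl (periplakin, ENSMUSG00000039457, chromosome 16), its binding partner, was at 10350, 9245 and 11560 on day 1, 2663, 2626 and 3089 on day 3, and 3395, 2836 and 2269 on day 5. In the first step it fell by 1.89 (SE 0.15, adjusted p = 2.0e-06), while days 3 and 5 overlapped (log2 change 0.01, SE 0.15, adjusted p = 0.98). The difference of steps was called for both and had opposite signs, −1.04 for Evpl (adjusted p = 2.8e-04) and 1.90 for Ppl (adjusted p = 9.6e-05). With the transcript length and GC trend of each library removed, Ppl was lower on day 5 than on day 3 (log2 change −0.39, adjusted p = 0.0055), where the median of all genes was −0.23.

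Of the 20 genes listed for plakins and the desmosome, the junction on which the envelope scaffold is anchored, 15 were tested. From day 1 to day 3, 14 fell and none rose, with a median log2 change of −1.35, beside 37% and 36.1% of all tested genes. From day 3 to day 5, 4 rose and 6 fell, with a median of −0.11, beside 34.8% and 32.4%. Dsp, the desmosomal plakin desmoplakin, was at 25387 ± 2329, 4499 ± 244 and 4414 ± 1001 normalized counts (log2 changes −2.49, adjusted p = 5.9e-07, and −0.05, adjusted p = 0.78), the order of events seen for Ppl. Dsc3, the desmocollin of basal layers, went from 1027 ± 54.1 to 59.2 ± 10.6 and then 86.9 ± 20.8, and Dsg3, the desmoglein of the same layers, from 9010 ± 651 to 1379 ± 74.3 and 840 ± 138. Jup, plakoglobin, fell at both steps, from 12171 ± 443 to 8836 ± 148 and 7187 ± 516. Pkp2, a plakophilin, was the gene of this list that ended higher, at 571 ± 10.2, 411 ± 19.6 and 843 ± 87.2 (day 5 against day 1, log2 change 0.56, adjusted p = 5.4e-04).

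Scel (sciellin, ENSMUSG00000022123, chromosome 14) and Cnfn (cornifelin, ENSMUSG00000063651, chromosome 7) both started high and then differed. Scel was at 1555, 1563 and 1611 on day 1, 111, 96.4 and 333 on day 3, and 566, 395 and 271 on day 5. One day 3 library, replicate 3, was well above the other pair and within the day 5 range. Scel fell by 3.36 from day 1 to day 3 (SE 0.41, adjusted p = 3.1e-05) and rose by 1.36 from day 3 to day 5 (SE 0.41, adjusted p = 0.013). That rise no longer passed without day 3 replicate 1 (adjusted p = 0.054), day 3 replicate 2 (0.058) or day 5 replicate 1 (0.056).

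Cnfn was at 1831, 1514 and 1759 on day 1, 495, 316 and 447 on day 3, and 8.92, 6.45 and 22.2 on day 5, when the libraries held 5 to 18 reads each. No library of one day overlapped another day. Cnfn fell by 2.04 (SE 0.35, adjusted p = 3.7e-04) and then fell by 5.11 (SE 0.35, adjusted p = 1.2e-06), a mean 136-fold lower on day 5 than on day 1. With length and GC trends removed the same steps were −2.81 and −4.44.

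Krtdap (ENSMUSG00000074199) and Sbsn (ENSMUSG00000046056), both on chromosome 7, encode secreted proteins of suprabasal keratinocytes. Krtdap was at 193, 93.0 and 174 on day 1 and 8.74, 8.03 and 10.9 on day 3, and it had no read in any day 5 library. Counted against 3 reads over the whole of day 5, its level was at least 133-fold lower than on day 1 and at least 7.97-fold lower than on day 3, an allowance for counting error only. From day 1 to day 3 it fell by 3.86 on the log2 scale (SE 0.35, adjusted p = 4.5e-06).

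Sbsn was at 2276, 1586 and 2195 on day 1, 301, 301 and 365 on day 3, and 186, 298 and 231 on day 5. It fell by 2.63 in the first step (SE 0.19, adjusted p = 1.4e-06). In GENCODE M21 7.70% of its exon bases are shared with Tmem147os on the same strand, which was at 23.0 ± 2.55, 43.0 ± 15.6 and 61.1 ± 23.1 on the 3 days. In the second step every library was lower than every day 3 library, but by a narrow margin, and the change of −0.45 (SE 0.19, adjusted p = 0.055) was not called. It was called, at −0.62, with quantile normalization (adjusted p = 0.024), at −0.74 with length and GC trends removed (adjusted p = 0.0025), and without day 5 replicate 2 (−0.63, adjusted p = 0.017) or day 1 replicate 2 (adjusted p = 0.039). Dmkn, which lies between these genes and was chosen after its values were seen, was at 2715 ± 295, 528 ± 25.6 and 420 ± 74.8, with log2 changes of −2.35 (adjusted p = 4.7e-07) and −0.35 (adjusted p = 0.042). Sbsn and Dmkn thus had most of their drop by day 3, and Krtdap alone of the 3 neighbours went to 0 reads, so its second drop has a lower bound only.

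**Figure D3:**
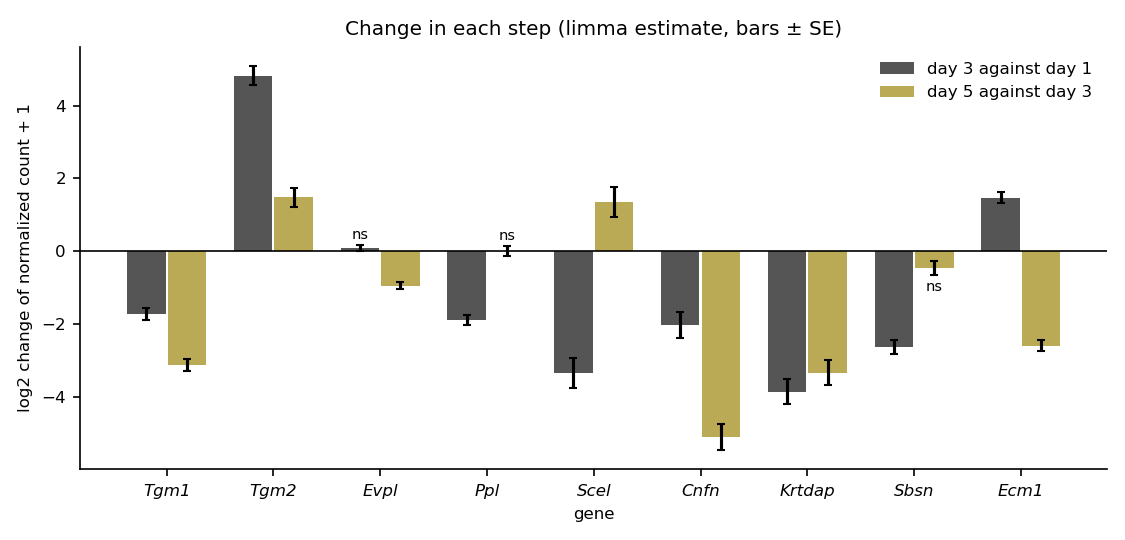
Log2 change of normalized count plus 1 for the 9 tested genes (limma estimate, bars start at 0, error bars ± SE), from day 1 to day 3 in grey and from day 3 to day 5 in yellow; ns marks changes that were not called. Tgm2 has the tallest bar above 0 (4.82), and Cnfn the deepest below 0 (−5.11).

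Ecm1 (ENSMUSG00000028108, chromosome 3), extracellular matrix protein 1, is a secreted glycoprotein of epidermis and dermis whose loss causes lipoid proteinosis in humans. It was at 11534, 11581 and 11595 on day 1, 34276, 26782 and 35983 on day 3, and 4465, 5306 and 6288 on day 5. The days did not overlap, with day 3 highest and day 5 lowest. Ecm1 rose by 1.47 (SE 0.15, adjusted p = 8.7e-06) and then fell by 2.60 (SE 0.15, adjusted p = 3.5e-07), and the difference of steps was −4.07 (adjusted p = 3.1e-06). The rise was 0.61 with length and GC trends removed (adjusted p = 0.0012), and the fall became −1.82 with quantile normalization (adjusted p = 3.0e-06). The hillock markers are genes of a stratified squamous-like airway cell and include Krt4 and Krt13. They summed to 198201 to 224191 on day 1, 343000 to 362062 on day 3 and 112925 to 145927 on day 5. The sum thus has the same order of days as Ecm1. Krt19 (128183 ± 12720) and Anxa1 (91864 ± 10283) were the largest parts of the day 3 sum. Of the 8 markers, 5 rose from day 1 to day 3 and 1, Krt6a, fell, beside 36.1% and 37% of all tested genes. All 8 fell from day 3 to day 5, beside 32.4%. On day 5, 5 were lower than on day 1 and none higher, beside 37.7% and 36.7%, and Krt4, Krt19 and Lgals3 were not called. The part of these markers in the course of Ecm1 was not tested.

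Per kb of transcript, a scale on which different genes can be set side by side, day 1 ran from Ecm1 at 6089 ± 16.8 normalized counts per kb, through Cnfn at 2437 ± 238, Ppl, Tgm1, Sbsn, Scel, Evpl and Krtdap, to Tgm2 at 49.0 ± 16.9 and Tgm3 at 0.48 ± 0.27. Ppl and Tgm1 overlapped, as did Sbsn and Scel. On day 3 the order was Ecm1 (17025 ± 2576), Tgm2 (1359 ± 346), Cnfn, Evpl, Ppl, Tgm1, Sbsn, Scel, Krtdap and Tgm3, and Cnfn overlapped Evpl, Ppl overlapped Tgm1, and Sbsn overlapped Scel. On day 5 Tgm2 led at 3718 ± 246, ahead of Ecm1 at 2817 ± 480, Ppl at 456 ± 90.5 and Evpl at 294 ± 18.5. Scel and Sbsn, which overlapped, came next, and then Tgm1 at 50.5 ± 12.8, Cnfn at 17.9 ± 12.1, Tgm3 and Krtdap. Tgm2 therefore went from the ninth place of 10 to the first, and Cnfn from the second to the eighth.

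Among the other structural precursors of the envelope (small proline-rich, late envelope, S100-fused and similar proteins), 20 of 47 listed genes passed the filter. From day 1 to day 3, 13 of them fell and none rose (median log2 change −1.63), beside 37% and 36.1% of all tested genes. From day 3 to day 5, 14 fell and 4 rose, beside 32.4% and 34.8%. The median of that step was −2.69, or −2.98 with the genes that had no read on a day set to a bound of 3 reads. On day 5, 17 were lower than on day 1 and none higher (median −4.73), beside 37.7% and 36.7%. Some of these genes had no read on a day, 5 in the comparison of day 5 with day 3 and 4 in that of day 5 with day 1. A gene with reads on 1 day only passes the filter through that day, so its change is largely set by the filter. These counts and medians are descriptions. Sprr3, a small proline-rich protein of wet squamous epithelia, went early, from 798 ± 189 to 25.5 ± 3.54 and 6.28 ± 1.40. Sprr1a went mainly late, from 10182 ± 875 to 2687 ± 722 and 40.2 ± 3.57 (log2 changes −1.95 and −6.00, adjusted p = 3.6e-06 and 1.6e-08). Sprr2a1 and Sprr2a2, near-identical copies between which reads may have been split, were at 22906 ± 3305 and 36448 ± 1350 on day 1, 34688 ± 7922 and 45238 ± 4222 on day 3, and 997 ± 423 and 1389 ± 473 on day 5. Their day 3 levels were not called different from day 1. Sprr2b had day 3 and day 5 means of 437 ± 221 and 0.33 ± 0.57. Tchh, trichohyalin, fell and rose again, from 324 ± 28.7 to 123 ± 9.38 and 283 ± 69.0, as Scel did.

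The epidermal keratin list fell as a sum, but its genes went both ways. Its sum went from 43375 to 48799 on day 1 to 14559 to 17424 on day 3 and 2895 to 4571 on day 5, most of it Krt17, with Krt6b at 6993 ± 1140, 177 ± 96.7 and 75.9 ± 13.2 and Krt16 at 2544 ± 665, 149 ± 34.0 and 61.6 ± 20.4. These are keratins of stressed and wounded epidermis, and Krt6b has a close copy in Krt6a with which reads may have been shared. Krt1 and Krt10, the pair of the cornifying layers, were low, at 1.61 ± 0.24 and 106 ± 10.02 on day 1 and 42.5 ± 13.7 and 164 ± 49.0 on day 5. Both were called higher on day 5 than on day 1 (log2 changes 4.01, adjusted p = 1.8e-06, and 0.57, adjusted p = 0.043). Of the 7 listed keratins 5 were tested. On day 5, 2 of them were higher than on day 1 and 3 lower, beside 36.7% and 37.7% of all tested genes.

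Of 20 tested genes (of 23 listed) that make and carry the lipids bound to the envelope, 13 fell and 3 rose from day 1 to day 3 (median −1.45). The shares of all tested genes were 37% and 36.1%. From day 3 to day 5, 7 fell and 7 rose (median 0.24), beside 32.4% and 34.8%. Abca12, the lamellar granule lipid transporter, went from 1216 ± 202 to 11.8 ± 7.07 and 17.3 ± 4.01 (first step −6.76, adjusted p = 7.5e-07). Nipal4, an ichthyosis gene, fell at both steps, from 814 ± 162 to 143 ± 12.7 and 27.6 ± 6.54. Elovl4, which extends very long fatty acids, fell from 332 ± 80.1 to 50.5 ± 11.5 and rose to 163 ± 30.8. Asah1, acid ceramidase, had the same course (4461 ± 137, 1595 ± 324 and 2503 ± 406). Smpd1, acid sphingomyelinase, rose at both steps, from 243 ± 38.1 to 516 ± 18.3 and 1047 ± 74.6, and Elovl1 was lower on day 5 (1567 ± 191) than on day 3 (2425 ± 161).

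Proteases and their inhibitors went both ways in the first step, and more of them fell than rose in the second. Of 20 tested (24 of 25 listed were matched), 6 rose and 9 fell from day 1 to day 3, beside 36.1% and 37% of all tested genes. From day 3 to day 5, 3 rose and 13 fell, beside 34.8% and 32.4%. The medians of the 2 steps were −0.72 and −0.57. On day 5, 5 were higher than on day 1 and 14 lower (median −1.46), beside 36.7% and 37.7%. Klk13, a kallikrein protease, fell from 2195 ± 738 to 908 ± 207 and 9.45 ± 2.21. Spink5, the inhibitor of kallikreins, fell from 656 ± 359 to 47.6 ± 7.09 and rose to 194 ± 43.6. Ctsd, a cathepsin that shares 34.4% of its exon bases with a same-strand gene model, peaked on day 3 (8503 ± 188, 28937 ± 5227 and 8638 ± 1775), and Ctsl peaked there too, at 11780 ± 611. Of the exon bases of Ctsl, 26.8%, none within the last 500, lie opposite other gene models. Prss8, the membrane protease prostasin, rose from 354 ± 45.9 to 990 ± 18.4 and was at 888 ± 134 on day 5, and 24.4% of its last 500 bases lie opposite Kat8.

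**Figure D4:**
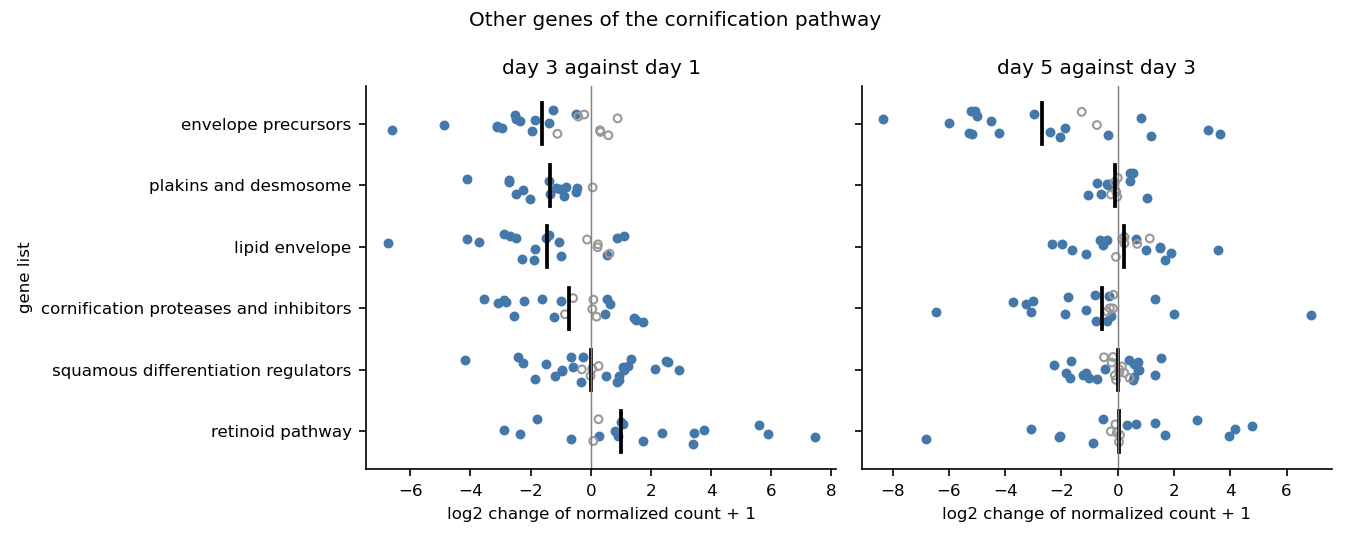
Log2 change of normalized count plus 1 for the tested genes of 6 lists, from day 1 to day 3 (left) and from day 3 to day 5 (right); filled points are called genes, open points are not, and black bars are list medians. Envelope precursors sit mostly left of 0 in both panels, with medians of −1.63 and −2.69, and the retinoid list has a median of 1.00 in the left panel.

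Of 28 tested transcription factors of squamous differentiation (29 listed), 12 rose and 12 fell from day 1 to day 3, beside 36.1% and 37% of all tested genes. From day 3 to day 5, 9 rose and 9 fell, beside 34.8% and 32.4%. Rises and falls were equally many among these factors, as they nearly were among all tested genes. Subunits of AP-1, the factor whose motif is marked in the promoters above, went in opposite directions. Fos rose from 944 ± 279 to 7371 ± 2713 and was at 9529 ± 1362 on day 5, Jun rose at both steps (1477 ± 171, 3332 ± 1330 and 9161 ± 1138), and so did Junb (2961 ± 246, 5655 ± 820 and 13926 ± 943). Of the last 500 bases of Junb, 34.6% lie opposite Prdx2. Fosl1 fell from 298 ± 43.9 to 21.4 ± 22.5 and 2.57 ± 1.34, with its last 500 bases wholly opposite Ccdc85b. The other AP-1 subunits of the list were Fosl2, which fell at both steps (log2 changes −0.58 and −0.45), and Jund, which rose and then fell (2.49 and −1.84). All of these changes were called. Elf3, an epithelial ETS factor, was at 3026 ± 637, 13037 ± 325 and 4112 ± 550, highest on day 3.

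Of 19 tested retinoid genes (21 listed), 13 rose and 4 fell from day 1 to day 3 (median 1.00), beside 36.1% and 37% of all tested genes. From day 3 to day 5, 8 rose and 6 fell (median 0.05), beside 34.8% and 32.4%. The enzymes of retinol and retinal oxidation named here went both ways. Aldh1a1 rose from 511 ± 194 to 1595 ± 119 and 43710 ± 1567, Adh7 from 809 ± 85.8 to 4212 ± 978 and 29335 ± 71.7, and Adh1 from 1.13 ± 1.96 to 300 ± 102 and 5164 ± 871. Aldh1a3, another retinal dehydrogenase, fell from 1272 ± 189 to 246 ± 8.06 and was at 213 ± 59.9 on day 5, and Dhrs9 fell from 612 ± 59.1 to 81.8 ± 12.9 and then rose to 132 ± 44.0. Stra6, the retinol uptake receptor, was at 158 ± 25.4, 1658 ± 103 and 197 ± 24.5, a day 3 peak.

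The genes whose centred log2 levels lay closest to those of 4 members over the 9 libraries were sought among 11613 genes with a mean of at least 100 normalized counts, by root mean square distance. Nearest to Tgm1 were Col4a2 (distance 0.19), Col4a1 (0.28) and Pigz (0.32), against a median distance of 2.0; the first pair encodes type IV collagen chains of basement membrane. Nearest to Tgm2 were Fetub (0.20), Coq8a (0.20) and Gm16505 (0.28), against a median of 2.80. Nearest to Ecm1 were Galnt6 (0.15), Tmem40 (0.18) and Psapl1 (0.18), against a median of 1.19. Krtdap had less close neighbours, with Serpinb9b at 0.55, Klk10 at 0.58 and Akap12 at 0.64, against a median of 2.92. The genes share libraries and size factors, so the distances are descriptions.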

How the data were processed

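RNA-seq libraries were made from total RNA, per the labels' protocols. HISAT2 2.1.0, DESeq2 1.36.0 and GRCm39 are named in the submitters' processing notes, and no source used here gives the read counter or strand setting. The authors deposited log2 values of read counts divided by a size factor per library, and a spreadsheet error text stands where a gene had no read (297330 cells), which was read as 0. Of 57107 lines, 359 repeats were dropped. All values came out as whole reads within 0.01 of a read.

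Groups came from the titles. limma 3.58.1 in R 4.3.3 (lmFit, eBayes with trend) was fitted to log2(normalized count + 1), 1 mean per day, 6 residual degrees of freedom, for 17338 genes with at least 10 normalized counts in 3 libraries, two-sided, with Benjamini-Hochberg adjustment at 0.05. The pseudocount understates changes of low genes. The fit was tested on simulated data. GENCODE M21 gave lengths, GC content and exon overlap. Members and 16 gene lists (247 of 248 entries matched) were chosen with earlier results of these data known. Named list genes are the 2 highest by mean and the largest called rise and fall per comparison among genes with a mean of at least 100. Dmkn, Jund and Fosl2 were named outside that rule. Alternatives changed pseudocount, filter, scaling, trend, libraries and test.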

Additional observations from a re-analysis of the deposited data

How the results depend on the processing

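Of 707 values under alternative settings for 36 changes of single genes (9 genes, 3 comparisons of days and the difference of steps), 692 kept their direction and their side of the threshold. Numbers of called genes stayed within 1.5 times in all settings. The permutation p of the Tgm2 to Tgm1 ratio was 0.00357 in each setting tried. That is the smallest p this design allows, and the days did not overlap for either gene, so an unchanged p cannot tell the settings apart. The replicate numbers did not pair the libraries. Correlations of same-numbered libraries of different days were −0.31 to 0.14, and those of differently numbered ones −0.15 to 0.36. A pairing in another order was not tested. With a block by replicate number 8, 7 and 9 genes were called in the comparisons of day 3 with day 1, day 5 with day 3 and day 5 with day 1, as without it. Ppl from day 3 to day 5 turned sign, at −0.39 with length and GC trends removed and over a range of −0.13 to 0.16 when a library was left out; the cause was not tested. That trend removal left 4323 genes higher and 7346 lower in this step, against 6040 and 5624. The Krtdap difference of steps was −0.34 with a pseudocount of 0.5, −0.14 with voom weights (a test chosen after seeing the data) and 2.07 with a pseudocount of 8, where it was called (adjusted p = 0.0014), against 0.52 (adjusted p = 0.46). Removing length and GC trends also gave a day 5 against day 1 change of −5.55 for Tgm1, −3.86 for Sbsn and −2.01 for Ecm1. Scel from day 3 to day 5 ranged from 1.03 to 1.91 and Sbsn from −0.63 to −0.29 when a library was left out. Dividing by coding length in place of transcript length left the order of the 10 genes on each day as it was. The planned count tests on the recovered reads were not run, and the voom fit on those reads was used in their place; TMM factors were computed from their definition. Tgm3 and day 5 Krtdap are limited by depth.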
